A study of Mus musculus with 4 samples.

Results

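Protocadherins are cadherin-family adhesion molecules, and most of them are made in the nervous system. The clustered protocadherins lie in the alpha, beta and gamma arrays, where each variable exon has its own promoter and a neuron uses a small choice of them, so that neighbouring cells carry different sets of isoforms that bind only their own kind. The chromatin proteins CTCF and cohesin join the arrays' enhancer to the promoter in use. The non-clustered protocadherins are single genes, among them the delta-1 and delta-2 families, which guide axons, sort cells and act at synapses. Levels of all of them were examined here in single-nucleus RNA-seq of mouse brain, by class of nucleus, region label and AAV label.

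Every gene symbol that has the form of a clustered or numbered protocadherin was taken, which gave 69 of the 31053 genes in the files. The 69 rows hold 12 alpha, 22 beta, 12 gamma A, 6 gamma B and 5 C-type members (57 clustered) and 4 delta-1, 5 delta-2 and 3 other non-clustered members. The symbol Pcdha11 stands on 2 rows with different Ensembl identifiers, so there were 68 distinct symbols.

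The samples were 4 libraries of nuclei from male C57BL/6J mice aged 8 weeks, 1 library each for cortex and striatum under AAV-VEGF-C, which encodes full-length mouse VEGF-C, and under AAV-CTRL, which encodes a soluble fragment of the VEGFR-3 ectodomain without affinity for VEGF-C. Both AAV9 vectors were injected into the cisterna magna, and no group went without a vector. Tissue of 5 brains was pooled for each AAV label and gave both region labels, so a library is a pool of mice, and region labels of 1 AAV label share their mice. With 1 library per group there was no replicate check and no test. The intervals below are exact 95% intervals that cover counting error only.

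The libraries held 17168 to 23724 nuclei and 63165470 to 78332657 UMIs (unique molecular counts), of which 16372 to 21653 nuclei were kept after doublets were left out. Classes of nuclei were rebuilt from clusters and marker genes, since no annotation was used, and carry names ending in -like. The pericyte-like class was cluster 16, whose leading genes held the smooth muscle markers Acta2 and Myh11 beside Abcc9, Vtn and Kcnj8. No smooth muscle class was named apart, so levels in pericyte-like nuclei can include smooth muscle nuclei. The region labels went against some markers. Ppp1r1b and Drd1, which mark striatal projection neurons, stood at 63.6 and 76.2 counts per 1000000 UMIs (CPM) and at 26.7 and 34.1 CPM in the AAV-CTRL and AAV-VEGF-C libraries labelled cortex, and lower, at 18.8 and 18.7 CPM and at 11.1 and 9.91 CPM, in those labelled striatum. Tcf7l2, a thalamic marker, showed 43.8 and 41.1 CPM under the cortex label and 301 and 337 CPM under the striatum label. Slc17a7, a marker of cortical excitatory neurons, went with the labels, at 420 and 463 CPM under cortex and 59.7 and 42.5 CPM under striatum. The regions are therefore called by their labels, and differences between them were not read as differences between cortex and striatum. Wherever 4 values follow each other, the first and second are from the cortex label and the others from the striatum label, each time with AAV-CTRL before AAV-VEGF-C. Vegfc itself stood at 12.3, 11.6, 12.8 and 11.9 CPM, so its RNA counts over whole libraries did not separate the AAV labels. The paper reports more VEGF-C protein in brain extracts by ELISA, and Vegfc upregulated in smooth muscle cells. Neither was examined here. A pair of libraries shared 0.41 to 0.66% of its barcodes.

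The non-clustered members took nearly all protocadherin UMIs. Summed, they stood at 5402, 5338, 6602 and 6048 CPM, and the 57 clustered members at 150, 144, 151 and 145 CPM. Among the arrays the beta members held the most UMIs, at 83.7, 79.4, 86.3 and 82.9 CPM. Alpha stood at 11.7, 11.6, 10.9 and 10.8 CPM, gamma A at 29.5, 27.6, 28.7 and 26.7 CPM and gamma B at 7.96, 7.51, 8.40 and 7.72 CPM. The C-type members stood at 17, 18.4, 16.5 and 17.2 CPM. Alpha and gamma members share exonic bases with other members, and how reads there were counted is not given. The order of the arrays was therefore not read as an order of expression. The sums of the arrays differed little between libraries. The delta-1 sum was 4347, 4270, 5209 and 4698 CPM, with both libraries labelled striatum above both labelled cortex.

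Nuclei hold unspliced RNA, so a long gene can give many UMIs where intronic reads are counted. Whether they were counted here is not given in the sources used. Levels of different genes were compared per kilobase of gene as a description, and the order depends on that choice of scale. On that scale, over all libraries, the 4.54 kb gene Pcdh8 (4.21 CPM per kb) and the 877 kb gene Pcdh9 (4.15 CPM per kb) were close, followed by Pcdh10 (3.02), Pcdh17 (2.58), Pcdh1 (2.12), Pcdh20 (1.89) and Pcdh7 (1.86 CPM per kb). Pcdh19 (0.696), Pcdh18 (0.489), Pcdh15 (0.441), Pcdh11x (0.265) and Pcdh12 (0.0337 CPM per kb) came last. The order of the CPM values themselves was different, since Pcdh15 spans 1550.4 kb. In build mm10, with gene limits from GENCODE M21, Pcdh9 lies at chr14:93013410-93890679, Pcdh17 at chr14:84443563-84539002, Pcdh15 at chr10:73099342-74649737, Pcdh7 at chr5:57717967-58133230, Pcdh11x at chrX:120290259-120910619 and Pcdh18 at chr3:49743296-49757325. The arrays, Pcdh1 and Pcdh12 are on chromosome 18.

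**Figure D1:**
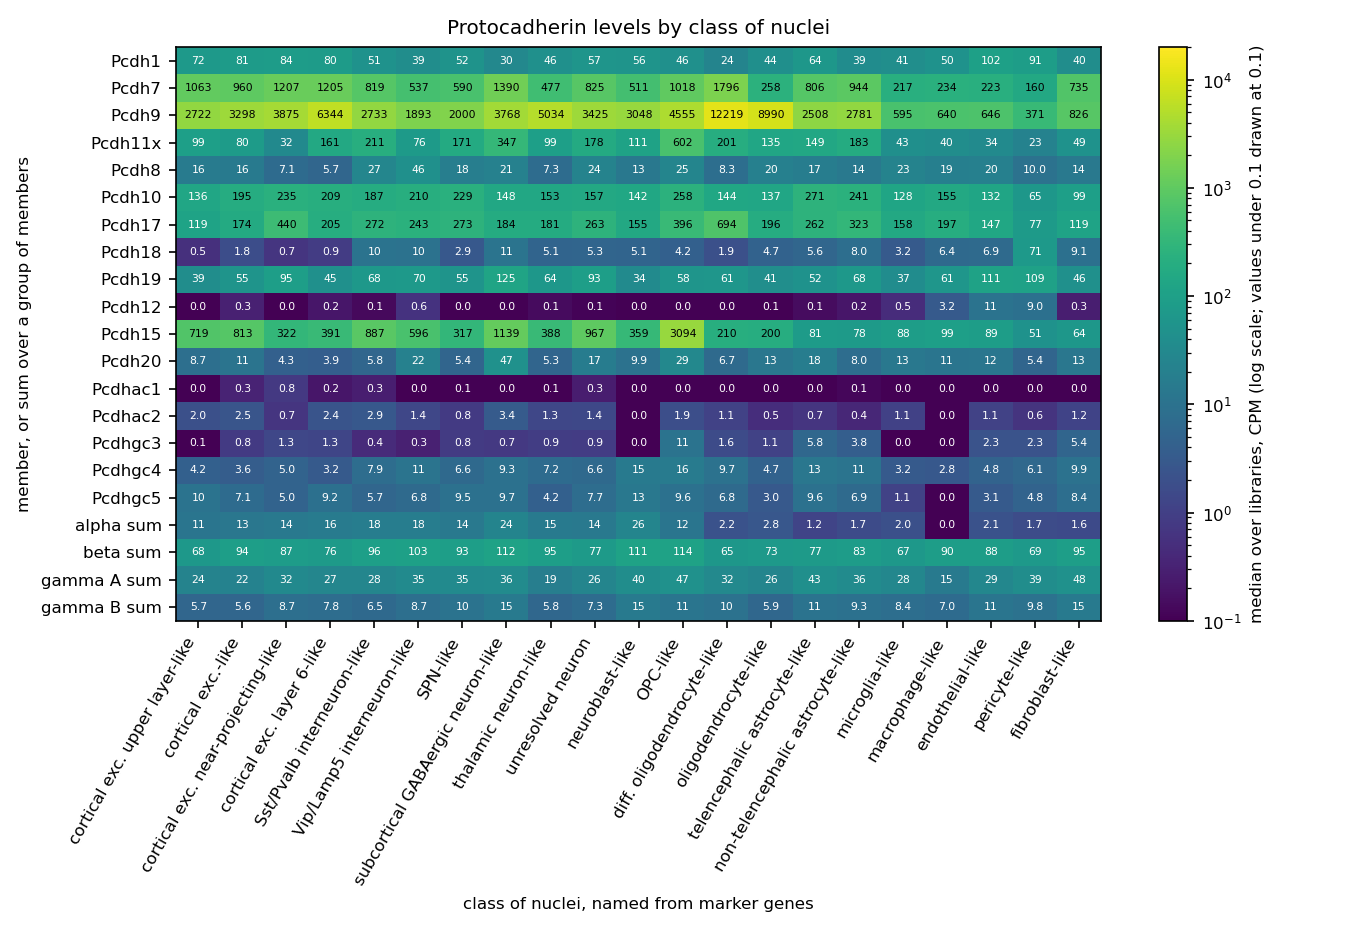
Heat map of the median CPM over libraries (log scale) for the 12 non-clustered members, the C-type members and the sums of the arrays, by class of nuclei (OPC, oligodendrocyte precursor; SPN, striatal projection neuron); values under 0.1 are drawn at 0.1. Pcdh9 is high in the oligodendrocyte lineage, Pcdh15 and Pcdh11x in oligodendrocyte precursor-like nuclei and Pcdh18 in pericyte-like nuclei, and the beta sum is nearly even.

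Pcdh9, a delta-1 protocadherin, had its highest level along the oligodendrocyte lineage. In differentiating oligodendrocyte-like nuclei it stood at 12139, 11920, 14635 and 12298 CPM, and in oligodendrocyte-like nuclei at 8497, 7876, 11222.5 and 9483 CPM. Oligodendrocyte precursor-like nuclei had less, 4238, 4405, 5421 and 4705 CPM, and no library of this class reached the lowest of the other 2. Among neurons Pcdh9 was highest in layer 6 cortical excitatory-like nuclei (6179 to 6510 CPM over 2 libraries), followed by thalamic neuron-like nuclei (4654 to 5413 CPM), and striatal projection neuron-like nuclei had 1648 to 2429 CPM. The lowest levels were in pericyte-like nuclei, 345, 299, 527 and 396 CPM, where the pan-neuronal markers, all 8 of them detected, summed to 1940 to 2436 CPM against 23900 to 26520.5 CPM in the unresolved neurons. Free RNA can put UMIs of abundant genes into other nuclei, so levels of this order were not read as expression.

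Pcdh7, another delta-1 member, was highest at the differentiating stage of that lineage. It was at 1825, 1460, 1866 and 1767 CPM in differentiating oligodendrocyte-like nuclei, at 954, 911, 1194 and 1081 CPM in the precursor-like class and at 268, 259, 257 and 217 CPM in oligodendrocyte-like nuclei, with no overlap among the 3 classes. Among neurons, Pcdh7 was highest in subcortical GABAergic neuron-like nuclei (1362 to 1419 CPM over 2 libraries). Cerebellar granule neuron-like (141 to 162 CPM) and pericyte-like nuclei (148 to 178 CPM) had the least and overlapped.

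Pcdh15, known from the tip links of hair cells, stood apart in the precursor class. Its level there was 2683, 2769, 3552 and 3419 CPM, against 189, 186, 357 and 230 CPM in differentiating oligodendrocyte-like nuclei and 186, 158, 251 and 213 CPM in oligodendrocyte-like nuclei. The classes next in order were subcortical GABAergic neuron-like nuclei (896 to 1383 CPM) and the unresolved neurons (827 to 1237 CPM), whose ranges overlapped. Telencephalic astrocyte-like nuclei had 62.9 to 108 CPM, in the range of the microglia-like and endothelial-like classes.

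**Figure D2:**
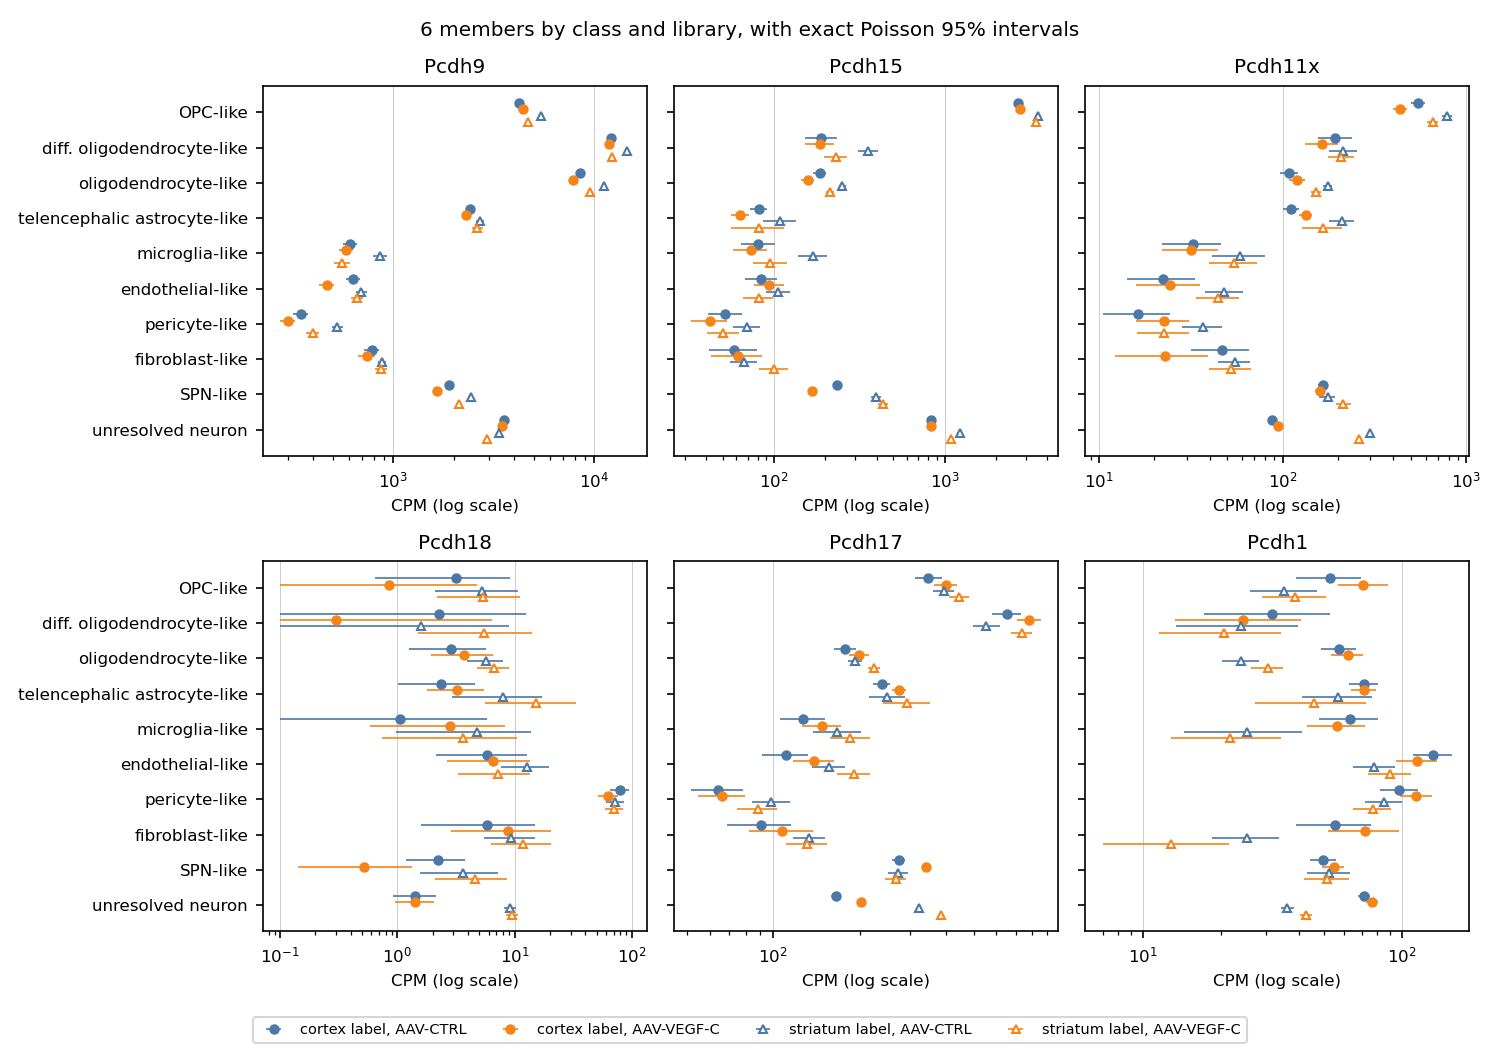
CPM (log scale) of 6 members in each class for each of the 4 libraries, with exact Poisson 95% intervals (OPC, oligodendrocyte precursor; SPN, striatal projection neuron). Values under 0.3 are drawn at 0.3. For Pcdh15 all 4 libraries of the oligodendrocyte precursor-like class sit between 2683 and 3552 CPM, above every other class shown.

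Pcdh11x, the X-linked delta-1 member, followed Pcdh15 in the precursor-like class with 547, 436, 785 and 658 CPM. Subcortical GABAergic neuron-like nuclei had 324 to 370 CPM and Sst/Pvalb interneuron-like nuclei 197 to 225 CPM, and both were below every precursor library. Pericyte-like nuclei, at 16.4 to 36.8 CPM, were lowest. The fourth delta-1 member, Pcdh1, was more even. It was highest in endothelial-like nuclei (132, 114, 78.2 and 89.8 CPM) and pericyte-like nuclei (97.6, 114, 84.9 and 77.0 CPM), 2 classes that overlapped each other and the cortical excitatory-like class (77.5 to 84.9 CPM).

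The delta-2 members divided between neural and vascular classes. Pcdh17, which acts at synapses of the corticobasal circuit, was highest in differentiating oligodendrocyte-like nuclei (654, 779, 554 and 734 CPM), next in near-projecting cortical excitatory-like nuclei (400 to 481 CPM) and precursor-like nuclei (347 to 445 CPM), which overlapped, and lowest in pericyte-like nuclei (64.1 to 98.5 CPM). Pcdh10, which binds the WAVE complex through Nckap1, was at 270, 273, 282 and 249 CPM in telencephalic astrocyte-like nuclei, a range that overlapped the precursor-like class (231 to 279.2 CPM). Non-telencephalic astrocyte-like nuclei, at 237 and 245 CPM, lay just below every telencephalic library. Red blood cell-like nuclei of the cortex AAV-CTRL library held 31 Pcdh10 UMIs, 239 CPM (163 to 340 CPM), so the order of the highest classes was not separated from background. Pcdh19, the X-linked gene of a human epilepsy, overlapped between a neuronal class and the vascular classes, but striatal projection neuron-like nuclei had less (levels given below). Its level was 119 to 132 CPM in subcortical GABAergic neuron-like, 99.3 to 128 CPM in endothelial-like and 79.3 to 129 CPM in pericyte-like nuclei.

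Pcdh18 had its highest level in pericyte-like nuclei. Pericyte-like nuclei had 79.1, 62.7, 71.9 and 70.8 CPM, from 116, 106, 127 and 125 UMIs, whereas endothelial-like nuclei had 5.81, 6.56, 12.7 and 7.16 CPM. On the average of a class, no other class compared exceeded 16.9 CPM in any library, and upper layer excitatory-like nuclei had 0.394 to 0.682 CPM. The gene was not confined to pericyte-like nuclei. The unresolved neurons labelled striatum, a mixture of clusters, also held Pcdh18 UMIs (levels given below). They had 7939 and 6494 nuclei, against 460 and 335 in the pericyte-like class of the same libraries. Pcdh8, known as arcadlin and regulated by synaptic activity, was highest in Vip/Lamp5 interneuron-like nuclei (43.0 and 49.3 CPM under the cortex label), above the 26.6 to 28.2 CPM of Sst/Pvalb interneuron-like nuclei.

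Of the other non-clustered members, Pcdh12, the endothelial protocadherin once called VE-cadherin-2, was sparse, with 149 UMIs in all. Endothelial-like nuclei held 14, 11, 16 and 5 of them (13.6, 10.3, 10.7 and 3.97 CPM) and pericyte-like nuclei 20, 17, 9 and 14 (13.7, 10.1, 5.1 and 7.93 CPM). The unresolved neurons, with far more nuclei, had at most 0.261 CPM of Pcdh12. Pcdh20 was highest in subcortical GABAergic neuron-like nuclei (40.3 and 53.8 CPM under the striatum label), above the precursor-like class (21.1 to 33.4 CPM).

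Among the clustered members, single isoforms were counted in few UMIs. The 3 members with the most UMIs over all libraries were Pcdha11 (identifier ENSMUSG00000102206, 856 UMIs), Pcdha4 (416) and Pcdha5 (310) in alpha, Pcdhb17 (2865), Pcdhb20 (2318) and Pcdhb14 (2184) in beta, Pcdhga12 (2101), Pcdhga3 (883) and Pcdhga6 (822) in gamma A, and Pcdhgb4 (749), Pcdhgb5 (612) and Pcdhgb6 (253) in gamma B. At the low end were Pcdha7 (49 UMIs), Pcdhb1 (8), Pcdhga1 (74) and Pcdhgb1 (75). Pcdhac1 had 48 UMIs.

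Per kilobase of exon, Pcdhb20 (2.55 CPM per kb) and Pcdhb17 (2.41 CPM per kb) were highest. Pcdhb1, at the start of its array, was lowest of the beta members (0.0121 CPM per kb). Whether UMIs scale with exon length was not tested. Along the beta array, level and position in the direction of transcription had a Spearman rho of 0.59 over 22 members, a description over genes of the same libraries. The same measure was 0.44 over the 12 gamma A members and 0.29 over the 12 alpha members. Beta members have a single exon each, but alpha and gamma gene models overlap, because variable exons splice to shared constant exons. Between 38.0 and 54.9% of the exonic bases of an alpha member, and 27.8 to 66.8% of those of a gamma member, are shared with other members. How reads in shared bases were assigned, or whether they were counted, is not given in the sources used here. The split of UMIs among alpha or gamma isoforms, and the sums of these arrays beside beta, are therefore uncertain. The 2 rows of Pcdha11 share bases in the same way and held 81 and 856 UMIs.

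**Figure D3:**
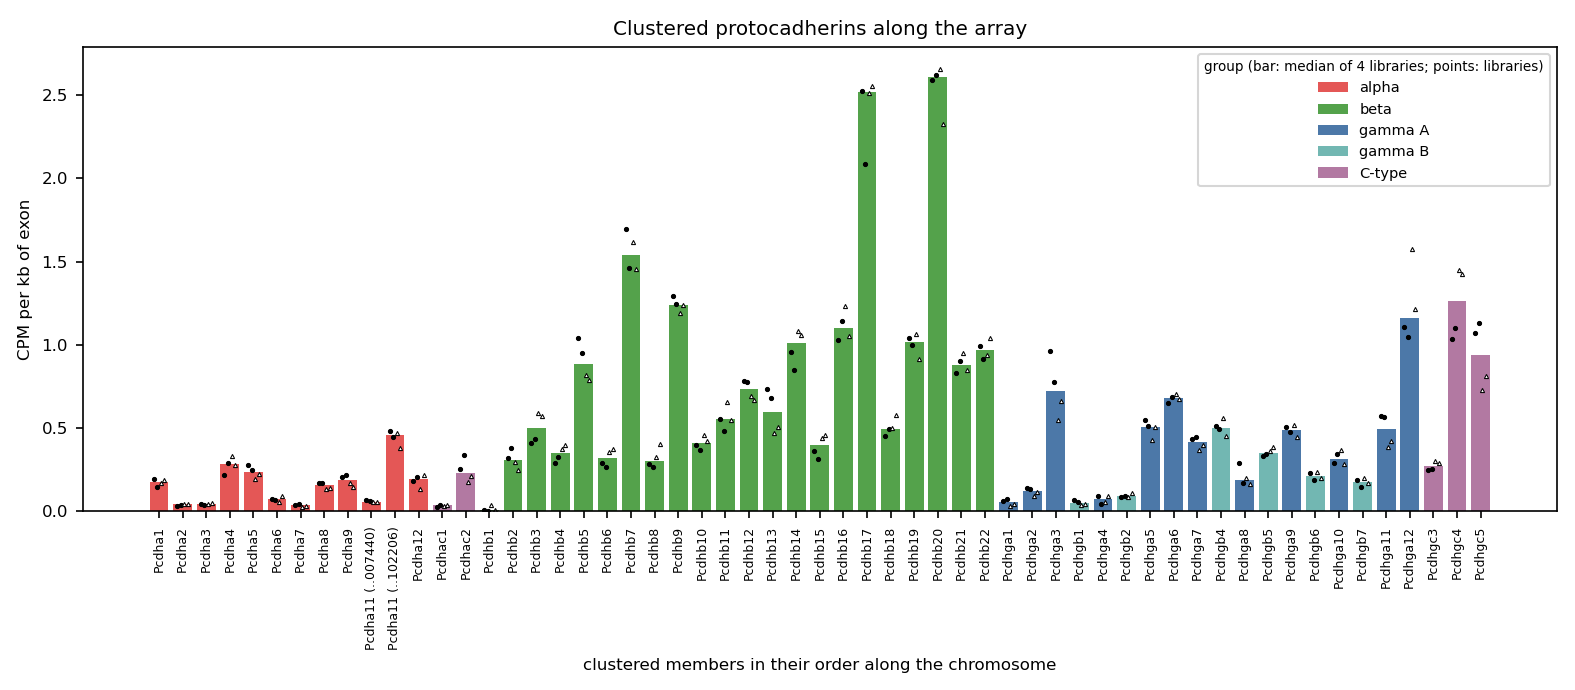
CPM per kb of exon for each clustered member in its order along the chromosome, with bars from 0 to the median of the 4 libraries, 1 point per library (circles, cortex label; triangles, striatum label) and colours for the groups. Pcdhb20 (2.55 over all libraries) and Pcdhb17 (2.41) stand highest.

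The arrays differed in where they were counted. Alpha UMIs were found in most neuronal classes and in precursors. The sum was 13.8, 14.3, 14.6 and 13.6 CPM in unresolved neurons, 14.5, 13.6, 13.6 and 12.7 CPM in striatal projection neuron-like nuclei and 14.7, 11.1, 9.73 and 12.4 CPM in precursor-like nuclei. In oligodendrocyte-like nuclei it was 2.89, 2.80, 2.76 and 1.85 CPM, and in telencephalic astrocyte-like nuclei 2.65, 1.16, 1.32 and 0 CPM. Cerebellar granule neuron-like nuclei were low as well, with 0 and 2 alpha UMIs (0 and 7.37 CPM, exact intervals up to 14.1 and 26.6 CPM). Beta UMIs were spread more evenly, at 124, 111, 107 and 117 CPM in precursor-like nuclei and 98.3, 74.7, 71.0 and 64.1 CPM in oligodendrocyte-like nuclei. Red blood cell-like nuclei, which should lack these genes, held 11 beta UMIs (84.9 CPM, 42.4 to 152 CPM) and no alpha UMI in the cortex AAV-CTRL library, so beta levels of that order were not separated from background.

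As a share of the clustered members' UMIs, alpha made up 9.64% in the neuronal classes (2574 of 26708 UMIs, exact binomial interval 9.29 to 10.0%). In the glial, vascular and immune classes other than precursors, alpha was 1.40% (114 of 8139 UMIs, 1.16 to 1.68%). In precursor-like nuclei it was 6.25, 5.04, 4.71 and 5.26%. Cerebellar granule neuron-like nuclei, which are not among those neuronal classes, had 0 of 42 and 2 of 58 UMIs (3.45%). Olfactory sensory neuron-like and neuroblast-like nuclei were left out of them too. In the striatum AAV-CTRL library the former had 19.6% of 92 UMIs and the latter 9.41% of 85. Neuroblast-like nuclei labelled cortex had 16.7% of 42 UMIs under AAV-CTRL and 4.55% of 44 under AAV-VEGF-C. The pan-neuronal markers in oligodendrocyte-like nuclei summed to 3753 to 5007 CPM, and their part in the alpha UMIs of the non-neuronal classes was not tested.

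**Figure D4:**
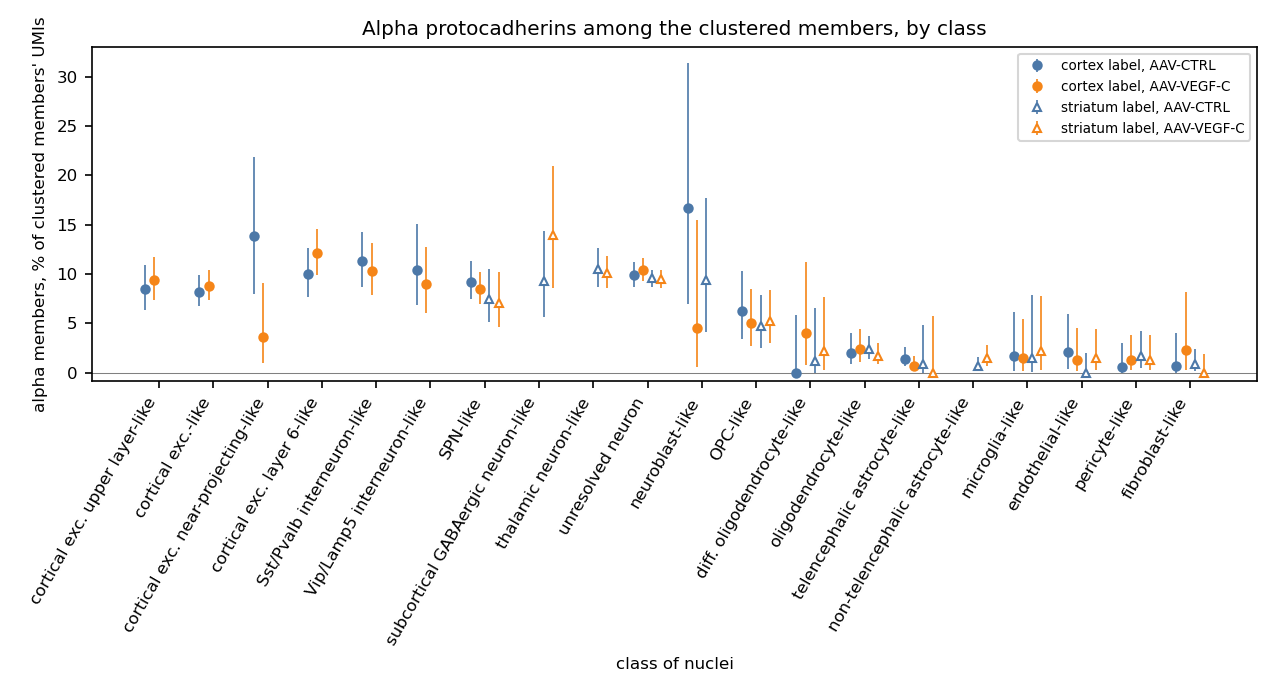
Alpha members' share (%) of the clustered members' UMIs in each class, with 1 point per library and exact binomial 95% intervals. Pooled, the neuronal classes stand at 9.64% and the glial, vascular and immune classes other than precursors at 1.40%, with single libraries of the near-projecting excitatory-like class at 13.9 and 3.67%.

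The C-type members differed from each other in where they were high. Pcdhgc3, which restrains Wnt signalling through Axin1, was at 8.42, 10.3, 12 and 10.8 CPM in precursor-like nuclei and 4.70, 6.27, 5.28 and 10.2 CPM in telencephalic astrocyte-like nuclei, and at 0.791 to 1.01 CPM in unresolved neurons. Pcdhgc4, needed for survival of interneurons, was at 17.9, 13.7, 14.2 and 19.3 CPM in precursor-like nuclei and 15.3, 14.6, 10.5 and 10.2 CPM in telencephalic astrocyte-like nuclei, against 2.62 and 4.61 CPM in cortical excitatory-like nuclei. Among neurons it was higher in Vip/Lamp5 interneuron-like nuclei (9.06 to 13.2 CPM). Pcdhgc5 showed 10.6 and 10.1 CPM in upper layer excitatory-like nuclei and 0 to 2.81 CPM in microglia-like nuclei. Pcdhac2, which spaces serotonergic axons, was at 1.43, 2.31, 1.34 and 1.17 CPM in unresolved neurons and at 0.325 to 0.923 CPM in oligodendrocyte-like nuclei. Summed, the C-type members reached 35.8, 36.8, 37.4 and 44.1 CPM in precursor-like nuclei and 5.78, 8.41, 10.4 and 11.1 CPM in oligodendrocyte-like nuclei.

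Gamma A was high outside neurons too. Fibroblast-like nuclei had 55.3, 42.2, 52.1 and 43.0 CPM of the gamma A sum. Thalamic neuron-like nuclei, the lowest of the neuronal classes, had 19.1 and 18.6 CPM. Subcortical GABAergic neuron-like nuclei (26.9 to 44.8 CPM) and cerebellar granule neuron-like nuclei (53.4 to 55.3 CPM) overlapped the fibroblast-like range. Vip/Lamp5 interneuron-like nuclei (30.7 to 38.5 CPM) lay below it. Gamma B was at 11.0 to 16.5 CPM in fibroblast-like nuclei and at 5.31 to 6.23 CPM in thalamic neuron-like nuclei. Here too the subcortical GABAergic (10.1 to 19.4 CPM) and cerebellar granule neuron-like classes (15.2 to 33.2 CPM) overlapped the fibroblast-like range.

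At this depth few nuclei showed more than 1 isoform. When nuclei were thinned to 1000 UMIs each, 642, 709, 1537 and 425 shallower ones dropped out, and 14.6, 13.6, 14.0 and 12.7% of nuclei had a UMI of any clustered member. Without thinning the shares were 37.4, 36.6, 32.3 and 35.8%, at median depths of 2486, 2631, 2109 and 2532 UMIs. Red blood cell-like nuclei, which should lack these genes, had such a UMI in 11.5% of 113 nuclei at a median of 1114 UMIs in the cortex AAV-CTRL library, so a single UMI does not mark a nucleus as expressing. Between 1.03 and 1.17% of thinned nuclei held UMIs of 2 or more isoforms, with 3 the most in any nucleus.

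Within a nucleus, beta UMIs fell on the same isoform more often than between nuclei. Of nuclei with exactly 2 beta UMIs (596, 693, 684 and 637 nuclei), both came from the same isoform in 16.9, 14.1, 14.3 and 19.0%, with exact intervals of 14.0 to 20.2, 11.6 to 17, 11.8 to 17.2 and 16.0 to 22.3%. UMIs drawn from different nuclei of the same library matched in 7.58, 7.29, 7.53 and 7.49%, as many as 13.2, 13.7, 13.3 and 13.3 equally used isoforms would give. All 4 libraries had the higher share within nuclei. These values pool the classes of a library, so pairs from different nuclei include pairs from different classes. The shares within nuclei cover only nuclei with exactly 2 beta UMIs. Isoform choice by single nuclei was not tested.

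Between AAV labels, the sums hardly moved at the level of whole libraries. The log2 ratio of AAV-VEGF-C over AAV-CTRL was -0.05 (-0.09 to -0.01) for the clustered members under the cortex label and -0.05 (-0.10 to -0.01) under the striatum label. For the non-clustered members it was -0.02 and -0.13. Of the 69 members, 59 had at least 50 UMIs in each pair, and Pcdha2, Pcdha3, Pcdha6, Pcdha7, Pcdha11 (ENSMUSG00000007440), Pcdhac1, Pcdhb1, Pcdhga1, Pcdhga4 and Pcdhgb1 did not. A log2 ratio of at least 0.58 in size, the fold the study used, was reached by Pcdhga8 (1.37 and 0.804 CPM, -0.77) and Pcdh12 (0.806 and 0.531 CPM, -0.60) under the cortex label, 2 of 59 where 2.54% of all genes reached it. Under the striatum label Pcdha12 (0.715 and 1.15 CPM, 0.69) and Pcdh12 (0.639 and 0.373 CPM, -0.78) reached it, again 2 of 59, with 4.67% of all genes.

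**Figure D5:**
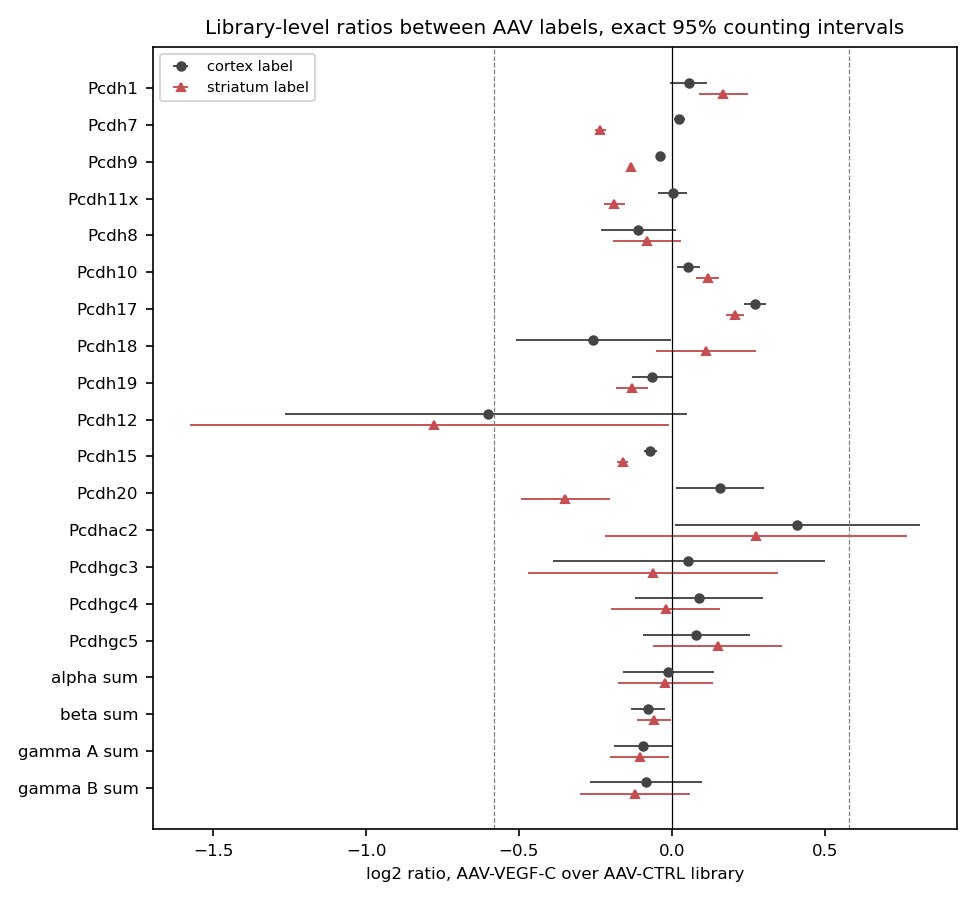
Library-level log2 ratio of AAV-VEGF-C over AAV-CTRL for the non-clustered members, 4 of the C-type members and the sums of the alpha, beta, gamma A and gamma B members, under each region label, with exact 95% counting intervals and dashed lines at 0.58 in each direction. Pcdh17 lies at 0.27 and 0.21, and Pcdh9 at -0.04 and -0.13.

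Pcdh17 was higher under AAV-VEGF-C in most classes. Its library level was 186 and 225 CPM in the AAV-CTRL and AAV-VEGF-C libraries labelled cortex and 266 and 307 CPM in those labelled striatum, log2 ratios of 0.27 (0.24 to 0.31) and 0.21 (0.18 to 0.24), below the 0.58 used as the fold. It was higher in 17 of 18 classes under the cortex label and in 12 of 15 under the striatum label. Among all genes compared in at least 13 classes, 6.02% were higher in at least 9 in 10 of them under the cortex label and 5.26% under the striatum label. Pcdh17 met that mark under the cortex label, but its 12 of 15 under the striatum label fell short of it. In differentiating oligodendrocyte-like nuclei the levels were 654 and 779 CPM under the cortex label and 554 and 734 CPM under the striatum label. In thalamic neuron-like nuclei they were 157 and 205 CPM. Macrophage-like nuclei labelled cortex, and pericyte-like, fibroblast-like and striatal projection neuron-like nuclei labelled striatum, went the other way, each with an interval that held 0.

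Pcdh9 went down by small steps. Its ratio was below 0 in 17 of 18 classes under the cortex label and in 14 of 15 under the striatum label, where 1.50 and 4.50% of all genes compared in at least 13 classes were lower in at least 9 in 10 of them. The library ratios were -0.04 (3394 and 3301 CPM) and -0.13 (4114 and 3749.96 CPM). The median of its class ratios was -0.07 under the cortex label and -0.20 under the striatum label, and the exceptions were oligodendrocyte precursor-like nuclei labelled cortex (0.06) and subcortical GABAergic neuron-like nuclei labelled striatum (0.05). Oligodendrocyte-like nuclei had 11222.5 and 9483 CPM under the striatum label, a ratio of -0.24 (-0.26 to -0.23). Classes of 1 library pair share its depth and scaling and are not independent.

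Pcdh15 was lower in 13 of 17 classes under the cortex label and in 12 of 14 under the striatum label. Both counts fell short of 9 in 10 classes, the mark met by 1.50 and 4.50% of all genes compared in at least 13 classes. The share of genes with counts like those of Pcdh15 was not computed, so the counts were not read as particular to it. The precursor-like class, its main site, barely differed (2683 and 2769 CPM under the cortex label, 3552 and 3419 CPM under the striatum label). Larger ratios stood in subcortical GABAergic neuron-like nuclei (1383 and 896 CPM, -0.63, with 1234 and 599 UMIs) and striatal projection neuron-like nuclei labelled cortex (235 and 166 CPM, -0.50). In striatal projection neuron-like nuclei labelled striatum, Pcdh15 was at 399 and 435 CPM, a ratio of 0.12 whose interval held 0. In fibroblast-like nuclei labelled striatum it was at 66.4 and 99.8 CPM (121 and 109 UMIs, 0.59, 0.20 to 0.97), past the fold in the opposite direction.

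Over pairs of member and class, 12 of 248 reached the fold under the cortex label (4.84%, 6 up and 6 down), where 4.65% of all gene and class pairs did, 2.53% up and 2.12% down. Under the striatum label 26 of 203 did (12.8%), 6 up and 20 down, against 6.07% of all pairs, or 2.84% up and 3.23% down. Thinned to 1000 UMIs per nucleus, the striatum share was 6.61% (8 of 121) with 7.34% of all pairs, and with a floor of 100 UMIs it was 6.85% (10 of 146) with 2.88% of all pairs. Most rested on few UMIs: 9 of the 12 and 16 of the 26 had under 100 in the pair, and the interval held 0 in 5 and 8 of them. Of 123 member and class pairs compared under both region labels, 69 had the same sign (56.1%, with 55.4% of all gene and class pairs), and none reached the fold with the same sign under both, as 0.253% of all pairs did.

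By size, the largest ratios under the cortex label were Pcdhb17 in oligodendrocyte-like nuclei (44 and 17 UMIs, -1.59, interval -2.49 to -0.75), Pcdha4 in unresolved neurons (19 and 49 UMIs, 1.09, 0.30 to 1.94) and Pcdhb13 in cortical excitatory-like nuclei (35 and 22 UMIs, -0.86, -1.70 to -0.05). Under the striatum label they were Pcdh15 in cerebellar granule neuron-like nuclei (54 and 24 UMIs, -1.22, -1.98 to -0.50), Pcdhga12 in fibroblast-like nuclei (42 and 11 UMIs, -1.19, -2.30 to -0.21) and Pcdhb20 in striatal projection neuron-like nuclei (42 and 17 UMIs, -1.14, -2.05 to -0.30).

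Microglia-like nuclei labelled striatum held 4 of the 20 decreases, of 7 members compared there, where 6.73% of all genes reached the fold. Pcdh9 was at 859 and 553 CPM (-0.63), Pcdh15 at 169 and 95 CPM (-0.83), Pcdh7 at 204 and 132 CPM (-0.62) and Pcdh19 at 63.2 and 38.5 CPM (-0.71). All 4 were higher in the unresolved neurons of the same libraries. The pan-neuronal markers summed to 4415 and 4119 CPM in these nuclei, all 8 detected, and their part in the decreases was not tested. The fold was also reached by Pcdh20 in oligodendrocyte-like nuclei labelled striatum (13.8 and 6.77 CPM, -1.03, -1.59 to -0.49) and by Pcdh19 in pericyte-like nuclei (129 and 79.3 CPM, -0.70, -1.02 to -0.39).

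Between region labels many genes differed, members among them. At library level the median of all genes was 0.19 on the log2 scale (striatum over cortex label) under AAV-CTRL and 0.20 under AAV-VEGF-C, so values near that shift are no difference against other genes. The clustered sum was at 0.01 under both AAV labels, and thus below the median gene. Pcdh11x was at 113 and 229 CPM under AAV-CTRL (1.02) and at 113 and 201 CPM under AAV-VEGF-C (0.83), Pcdh18 at 4.44 and 9.32 CPM (1.07) and 3.72 and 10.1 CPM (1.44), and Pcdh1 at 69.0 and 38.2 CPM (-0.85) and 71.7 and 42.9 CPM (-0.74). Over pairs of member and class, 46 of 155 reached the fold under AAV-CTRL (32 up, 14 down) and 34 of 150 under AAV-VEGF-C (22 up, 12 down), 29.7 and 22.7%, where 20.9% (12.3% up, 8.57% down) and 21.1% (12% up, 9.10% down) of all pairs did.

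Pcdh11x was higher under the striatum label in all 11 classes compared under AAV-CTRL and all 10 under AAV-VEGF-C, where 16.2 and 15.0% of genes compared in at least 9 classes were higher in at least 9 in 10 of them. The unresolved neurons led with 87.7 and 299 CPM under AAV-CTRL and 93.8 and 261 CPM under AAV-VEGF-C (1.77 and 1.48). In the precursor-like class the levels were 547 and 785 CPM (0.52) and 436 and 658 CPM (0.59). Under median-of-ratios scaling 10 of the 11 classes stayed higher under AAV-CTRL. With each library clustered on its own, 6 classes could be compared under AAV-VEGF-C, and all 6 were higher. Endothelial-like nuclei were low, with 22.3 and 48.1 CPM under AAV-CTRL. The part of free RNA in such low classes was not tested, so the counts of classes were not read as a shift within every class.

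Pcdh1 was lower under the striatum label in 8 of 9 classes under AAV-CTRL and in 9 of 9 under AAV-VEGF-C, where 9.79 and 11.3% of genes compared in at least 9 classes were lower in at least 9 in 10 of them. The 8 of 9 under AAV-CTRL fell just short of that mark. Oligodendrocyte-like nuclei had 57.1 and 23.9 CPM (-1.26) and 61.7 and 30.3 CPM (-1.03), and these nuclei came mostly from cluster 6 under the cortex label and from cluster 1 under the striatum label. Microglia-like nuclei had 63.0 and 25.3 CPM (-1.32) and 56.2 and 21.6 CPM (-1.38). Striatal projection neuron-like nuclei were the exception, with 49.7 and 52.3 CPM under AAV-CTRL (0.07) and 54.4 and 51.3 CPM under AAV-VEGF-C (-0.08).

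Striatal projection neuron-like nuclei differed between region labels in other members, and those named were chosen after their values were seen. The fold was reached by 29.4% of 17 members under AAV-CTRL and 36.8% of 19 under AAV-VEGF-C. Of all genes compared in this class, 13.2 and 15.0% reached it. The class merges clusters 7 and 27. Cluster 27 made up 13.9 and 10.5% of it under the cortex label and 20.8 and 17.8% under the striatum label, so the ratios compare different mixtures of nuclei. Pcdh15 was at 235 and 399 CPM under AAV-CTRL (0.77) and 166 and 435 CPM under AAV-VEGF-C (1.39), Pcdh19 at 40.3 and 78.7 CPM (0.96) and 36.1 and 70.1 CPM (0.96), and Pcdh8 at 14.7 and 28.7 CPM (0.96) and 10.5 and 21.8 CPM (1.06). All 3 were higher under the striatum label in both AAV labels. Among unresolved neurons Pcdh18 went from 1.43 to 9.14 CPM (2.68) and from 1.43 to 9.46 CPM (2.73), and Pcdh17 from 165 to 323 CPM (0.97) and from 203 to 383 CPM (0.92). Different clusters make up the unresolved neurons under the 2 region labels, with clusters 0 and 4 holding most under striatum and clusters 11, 18, 20 and 21 most under cortex, so these ratios compare different nuclei.

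Genes around the protocadherins were described by list. The 19 chromatin factors of the clustered promoters, among them Ctcf and the cohesin subunits, reached the fold between AAV labels in 8 of 291 gene and class pairs under the cortex label and 3 of 251 under the striatum label (2.75 and 1.2%, against 4.65 and 6.07% of all pairs). For 18 intracellular partners the counts were 4 of 291 and 10 of 246. For 29 other cadherin superfamily genes they were 18 of 329 and 22 of 284, of which 12 and 18 were down. At library level the medians of the 3 lists lay between -0.08 and 0.01 on the log2 scale, and the median of all genes was -0.01 and 0.00.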

How the data were processed

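Nuclei of the 4 libraries were counted by droplet single-nucleus RNA-seq, and the authors deposited raw UMI counts per gene and nucleus. The file header names Cell Ranger 5.0.1, whereas the submitters' notes name version 5.1.1 and build mm10. The annotation and the use of intronic reads are not given in the sources used here. The members and lists were chosen with earlier results of these data known.

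Doublets were scored in each library by simulated pairs at an expected rate of 8%, and called doublets were left out together with all nuclei of clusters in which at least 40% were called, which removed 796, 1343, 2071 and 949 nuclei. The called shares were 3.87, 6.03, 8.04 and 4.72%. Of 78728 nuclei 73569 were kept. Clustering came before this removal and used all 78728, doublets included. It took 5000 variable genes, from which the members were left out, 50 components, 15 neighbours and a Leiden resolution of 1.2 (leidenalg 0.10.2, scanpy 1.11.5, Python 3.11.15, numpy 2.4.6, scipy 1.17.1, pandas 2.3.3). This gave 71 clusters, 14 of them doublet clusters. Clusters were named from marker lists, and the naming rule was revised after clusters were seen.

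UMIs were summed per class and library and scaled to 1000000. Classes with at least 100 nuclei in a library were compared, and ratios were taken for genes with at least 50 UMIs in the pair. Groups of 1 library allow no test, so the ratios carry only exact 95% counting intervals. The calculation of the ratios and their intervals was tested on simulated counts with known changes. The text names every non-clustered and C-type member, the 3 members with the most UMIs in each array group and, in each region label, the 3 largest AAV ratios. Other members named beside counts were chosen after their values were seen. Gene limits came from GENCODE M21. The alternatives tried are given in the closing section.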

Additional observations from a re-analysis of the deposited data

Results flagged for a closer look

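In 2 members the ratio of AAV-VEGF-C over AAV-CTRL had opposite signs under the cortex and striatum labels, with both counting intervals on their own side of 0. With 1 library per group the difference was not tested. For Pcdh20 over all nuclei the log2 ratio was 0.16 under the cortex label (11.9 and 13.3 CPM) and -0.35 under the striatum label (13.9 and 10.9 CPM), a difference of -0.51. In unresolved neurons the ratio of Pcdh20 was 0.47 and -0.36, a difference of -0.82, and different clusters make up these nuclei under the region labels. For Pcdh7 over all nuclei the ratio was 0.02 (771 and 785 CPM) and -0.23 (828 and 704 CPM), a difference of -0.26.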

How the results depend on the processing

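No paired analysis was possible because each group held 1 library, so that no 2 groups share more than 1 replicate number, and ratios between region labels were taken within an AAV label, whose libraries share their mice. Of the values that answer a comparison, 75 stayed within their counting interval or within 1.5 times the count under an alternative and 41 moved. A turn of direction was recorded only for ratios of at least 0.58 in size, which no summed ratio reached, so none could be recorded. Signs of small ratios did change, as for the clustered sum between region labels, which turned negative when thinned and under median-of-ratios scaling. For single members 168 stayed and 49 moved. Thinned to 1000 UMIs per nucleus, the clustered sum between AAV labels was -0.11 (cortex) and -0.12 (striatum) and the non-clustered sum -0.13 (striatum), and between region labels the clustered sum was -0.067 (AAV-CTRL) and -0.078 (AAV-VEGF-C) and the non-clustered sum 0.36 and 0.24. As a mean over nuclei, the AAV values were -0.11 (clustered, cortex) and -0.11 (non-clustered, striatum), and the region values -0.090 and -0.067 (clustered) and 0.34 and 0.25 (non-clustered). Under median-of-ratios scaling the non-clustered sum was -0.0072 (AAV, cortex), 0.11 and -0.0030 (region), and the clustered sum -0.17 and -0.18 (region). With class shares held equal the non-clustered sum was -0.036 and -0.18 (AAV) and 0.26 and 0.12 (region), and the clustered sum 0.054 and 0.057 (region). With no nuclei left out the non-clustered region value under AAV-CTRL was 0.30. The alpha share in neurons was 8.34% thinned and 8.30% as a mean over nuclei. Pairs of member and class past the fold numbered 4 and 8 thinned, 68 and 60 with a floor of 20 UMIs, and 3 and 10 with a floor of 100 UMIs (cortex, striatum), where the floor sets how many pairs are compared. As shares they were 3.08 and 6.61% thinned (6.17 and 7.34% of all genes' pairs), 16.3 and 18.1% at 20 UMIs (10.7 and 12.7%) and 1.79 and 6.85% at 100 UMIs (1.93 and 2.88%). The share of nuclei with a clustered UMI was 37.4, 36.6, 32.3 and 35.8% without thinning and 25.5, 25.0, 26.4 and 25.2% at 2000 UMIs. The cause of the other shifts was not tested.

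The class with the highest level became red blood cell-like for Pcdh10 (277 CPM) and layer 6 excitatory-like for Pcdh1 under median-of-ratios scaling, pericyte-like for Pcdh1 and Pcdh12 when thinned and for Pcdh12 as a mean over nuclei, another astrocyte class for Pcdh10 with each library clustered on its own, and neuroblast-like for Pcdh1 without the cortex AAV-CTRL library. Counts of classes on one side of 0 were recomputed under alternatives chosen after seeing the data. Pcdh9 was lower in 13 of 16 (each library clustered on its own) to 17 of 18 classes under the cortex label and in 10 of 12 to 14 of 15 under the striatum label. Pcdh17 was higher in 16 of 18 to 18 of 18 classes and in 11 of 14 to 14 of 15, and Pcdh15 was lower in 10 of 16 to 13 of 15 and in 10 of 13 to 13 of 14. Pcdh1 under AAV-CTRL was lower between region labels in 8 of 9 to 9 of 9 classes. Pcdh12 and single isoforms rest on few UMIs, which limits what can be read from them.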
